A study of Mus musculus with 9 samples.

Results

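The kidney recovers nearly all filtered amino acids in the proximal tubule, and 10 genes for the carriers that do this were followed in cortex RNA of control, dbdb and rosiglitazone-treated (dbR) mice. They were Slc3a1, Slc7a9, Slc1a1, Slc6a19, Slc6a18 and Slc6a20b, whose products are known from the apical (brush border) side of tubular cells, Slc3a2, Slc7a7 and Slc7a8, known from the basolateral side, and Slc7a12. The genes were taken by symbol from the mRNA files, where all 10 were found among 21950 genes. All 10 passed a minimum mean of 0.1 FPKM, as did 14537 genes in all.

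The study compared male mice of the C57BL/KsJ strain at 15 weeks of age. Control mice were db/m littermates, heterozygous for the db mutation of the leptin receptor. The dbdb mice were homozygous for it, became diabetic and received vehicle by gavage. The dbR mice were also homozygous and received rosiglitazone, an activator of the nuclear receptor PPARγ, at 20 mg/kg/day by gavage for 8 weeks, starting at 7 weeks of age. Each group had 3 libraries of ribosome-depleted renal cortex RNA from 1 mouse each. All 3 groups carried at least 1 db allele, and both homozygous groups carried the receptor mutation from birth, so diabetes, obesity and loss of the receptor cannot be told apart in them. Whether control mice received vehicle by gavage is not stated in the sources used here, so gavage may be a further difference from control. Expression was read as FPKM, a unit in which the fragments of a transcript are related to its length and to the sequencing depth, summed over the transcripts of a gene.

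Amino acids enter a proximal tubular cell through apical carriers, several of them driven by the sodium gradient, and leave through basolateral exchangers and uniporters. Slc7a7, Slc7a8 and Slc7a9 are light chains, which need a heavy chain of the SLC3 family to reach the membrane. The apical system for cystine and basic amino acids is the pair of Slc3a1 (rBAT) and Slc7a9, and loss of either causes cystinuria, while on the basolateral side Slc3a2 (CD98 heavy chain) is the partner of Slc7a7 and Slc7a8.

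Sequences upstream of the transcription start are shown for the members whose level changed in dbdb vs. control and for which a RefSeq start was at hand (promoter table of build GRCm38.p6). Of the 10 genes, 8 had an entry, with 13 starts, and Slc6a18 and Slc7a12 had none. Each line gives the bases upstream of a start that lie outside annotated exons, read 5′ to 3′ on the strand of the gene, with matched motifs in capitals. Relative to the start, the stretch of Slc3a1 spans -250 to -1 and that of Slc3a2 -63 to -1. Those of Slc1a1 (-250 to -87), Slc6a20b (-250 to -28) and Slc7a8 (-250 to -61) end before the start.
Slc3a1 (fell; chr17:85028097-85028346, plus strand): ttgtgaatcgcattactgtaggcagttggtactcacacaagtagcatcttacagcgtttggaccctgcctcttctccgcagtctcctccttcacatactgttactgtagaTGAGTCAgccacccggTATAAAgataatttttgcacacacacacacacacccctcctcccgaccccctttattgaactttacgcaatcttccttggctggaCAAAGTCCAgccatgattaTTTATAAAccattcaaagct
Slc1a1 (fell; chr19:28834885-28835048, plus strand): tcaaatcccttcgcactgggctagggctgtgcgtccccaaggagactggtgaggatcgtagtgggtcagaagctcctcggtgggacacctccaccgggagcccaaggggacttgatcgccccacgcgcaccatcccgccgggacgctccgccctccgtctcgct
Slc6a20b (fell; chr9:123632566-123632788, minus strand): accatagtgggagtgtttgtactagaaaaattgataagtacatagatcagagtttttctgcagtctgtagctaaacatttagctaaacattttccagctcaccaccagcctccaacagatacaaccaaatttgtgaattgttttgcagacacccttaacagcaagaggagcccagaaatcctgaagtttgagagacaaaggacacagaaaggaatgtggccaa
Slc3a2 (rose; chr19:8713898-8713960, minus strand): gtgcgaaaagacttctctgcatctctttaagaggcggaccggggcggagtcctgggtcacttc
Slc7a8 (rose; chr14:54781947-54782136, minus strand): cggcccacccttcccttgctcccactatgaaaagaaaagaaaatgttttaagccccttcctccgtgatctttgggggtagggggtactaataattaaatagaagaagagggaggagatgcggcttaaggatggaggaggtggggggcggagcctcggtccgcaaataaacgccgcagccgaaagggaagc

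In windows from 250 bases before to 50 bases after each start, 9 motifs were searched on both strands. The capitals in Slc3a1 mark an AP-1 site (TGACTCA or its reverse complement) at -140, the motif TATAAA at -124, a direct repeat known to be bound by HNF4A (CAAAGTCCA) at -39, and an overlapping pair of TATAAA matches on opposite strands at -20 and -18. HNF4A is a transcription factor of proximal tubular cells. The repeat was present in 0.475% of 32851 RefSeq promoters, the AP-1 site in 5.20% and TATAAA in 13.6%. The stretches of the other 4 genes held no match to any of the 9 motifs. Slc7a7 had 2 matches to the core of the amino acid response element (TGATGNAA, 3.97% of promoters) within 1 window, at -141 and -1, and 1 of them again in the window of a neighbouring start. The core of the HNF1 motif (GTTAAT, 7.10%) was matched in Slc7a7 at -86 and in Slc3a1 at 1. The remaining motifs were CCAAT (37.4%), with a match in Slc6a19 at -245, and GGGGCGGGG (11.4%), the full HNF1 palindrome (0.00913%) and the full androgen and glucocorticoid response palindrome (0.00913%), with none in any of the 8 genes. A match is a string of letters and was not tested as a binding site.

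In control cortex the 10 genes ranked from 267th (Slc3a1) to 3550th (Slc7a12) by mean FPKM among the 14537 genes. FPKM is per length, so the genes can be set against each other. Slc3a1 had the highest mean at 288 ± 12.9 FPKM (SD, n = 3), followed by Slc6a19 at 175 ± 13.02 and Slc7a7 at 125 ± 17.4. Slc7a9, Slc3a2 and Slc6a18 followed at 101, 93.0 and 92.8 FPKM, and the ranges of neighbours among these 3 overlapped. Slc6a20b (84.7), Slc1a1 (73.3), Slc7a8 (51.6) and Slc7a12 (20.5) each stood apart from the next. In dbdb, Slc3a2 had moved up to the third place at 147 ± 13.4 FPKM, in a range that overlapped with that of Slc7a7 (145 ± 16.0). The summed FPKM of all 10 genes was between 1097 and 1111 in control, between 992 and 1268 in dbdb and between 1075 and 1128 in dbR, so the groups overlapped in the total while the members shifted within it.

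**Figure D1:**
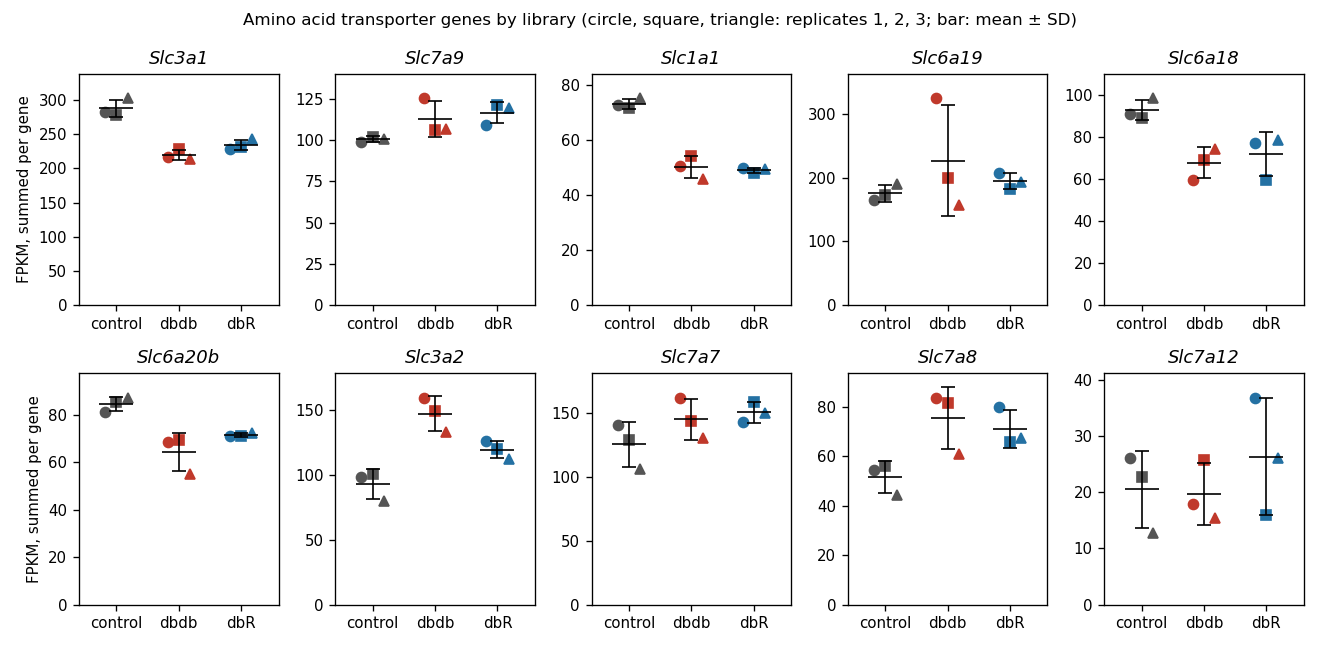
FPKM of each of the 10 genes (vertical axes from 0, each gene on its own scale) in the 3 control, 3 dbdb and 3 dbR libraries, with symbols for replicates and bars for the mean ± SD. Slc1a1 was between 71.7 and 75.2 in control and between 46.0 and 54.1 in both homozygous groups together, while Slc3a2 was at most 100.3 in control and at least 133 in dbdb, with dbR between them.

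The first comparison, dbdb vs. control, asks which carriers differed in the diabetic cortex. Of the 6 apical genes, Slc1a1, Slc3a1, Slc6a18 and Slc6a20b fell, to between 68.6% and 76.3% of the control mean. Of the 3 basolateral genes, Slc3a2 and Slc7a8 rose, to 158% and 146%. These were 6 of 10 genes called at an adjusted p under 0.05 (limma on log2(FPKM + 0.1), adjusted over 14537 genes), beside 26.4% of all genes tested, of which 13.4% were lower and 13.1% higher. In 7 of 10 the groups did not overlap, beside 42.4% of all genes (21.2% in each direction). The median log2 fold change of the 10 was 0.07, and that of all genes was -0.003. Because this is bulk tissue, fewer cells of a type and less RNA per cell cannot be told apart.

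Slc1a1, the high-affinity carrier for glutamate and aspartate, was at 72.9, 71.7 and 75.2 FPKM in control and at 50.7, 54.1 and 46.0 in dbdb. Every dbdb library was below every control library, and the control values lay close together. The log2 fold change was -0.55 ± 0.063 (SE, adjusted p = 0.000282, limma).

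Slc3a1, the heavy chain of the cystine carrier, was at 283, 278 and 302 FPKM in control and at 217, 228 and 214 in dbdb. The groups were well apart, and the change was -0.39 ± 0.059 on the log2 scale (adjusted p = 0.00128, limma). Its light chain Slc7a9, which carries the substrate, did not fall with it. Slc7a9 was at 98.9, 102 and 101 FPKM in control and at 125, 106 and 107 in dbdb. All dbdb values lay above the control values, by little in 2 of 3, and the log2 difference of 0.16 ± 0.073 did not pass the test (adjusted p = 0.132, limma) and was 0.084 without dbdb replicate 1.

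Among the sodium-dependent neutral amino acid carriers of the SLC6 family, Slc6a18 and Slc6a20b were lower and Slc6a19 was not called. Slc6a18, an apical carrier of glycine and other neutral amino acids, was at 91.0, 89.0 and 98.4 FPKM in control and at 59.7, 69.3 and 74.2 in dbdb (log2 fold change -0.46 ± 0.11, adjusted p = 0.0147, limma). Slc6a20b, one of a pair of mouse counterparts of the human proline carrier SLC6A20, was at 81.4, 85.4 and 87.3 FPKM in control and at 68.8, 69.4 and 55.3 in dbdb (-0.40 ± 0.083, adjusted p = 0.00655). In both genes the groups did not overlap, with dbdb below control.

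Slc6a19, the main apical carrier of neutral amino acids and the gene of Hartnup disorder, varied most among the dbdb mice of all abundant members. It was at 164, 173 and 190 FPKM in control and at 324, 200 and 156 in dbdb. One dbdb library was far above all others and another was below the control range, so the groups overlapped (log2 difference 0.30 ± 0.21, adjusted p = 0.314, limma). Without dbdb replicate 1 the difference was 0.012, and without dbdb replicate 3 it was 0.54 (adjusted p = 0.0503).

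On the basolateral side, Slc3a2 was at 98.6, 100.3 and 80.0 FPKM in control and at 159, 149 and 133 in dbdb. The gap between the groups was wider than the spread within either, and the log2 fold change of 0.67 ± 0.098 was the largest of the 10 genes in this comparison (adjusted p = 0.0011, limma). Slc7a8, its light chain for large and small neutral amino acids, was at 54.5, 56.1 and 44.3 FPKM in control and at 83.7, 81.6 and 61.1 in dbdb. Its groups were apart as well (0.54 ± 0.13, adjusted p = 0.0158). Slc7a7, the light chain for basic amino acids whose loss causes lysinuric protein intolerance, was at 141, 129 and 107 FPKM in control and at 162, 144 and 130 in dbdb, with overlapping groups (0.22 ± 0.11, adjusted p = 0.174). The difference in Slc7a7 was 0.10 without control replicate 3 and 0.13 without dbdb replicate 1.

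Slc7a12, a little studied member of the SLC7 family, was the least abundant of the 10 and the most variable in control and dbR. It was at 26.1, 22.7 and 12.8 FPKM in control and at 17.9, 25.9 and 15.4 in dbdb. The groups overlapped throughout, and the 95% interval of the log2 difference ran from -0.77 to 0.71 (adjusted p = 0.959, limma).

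The calls of Slc1a1, Slc3a1, Slc3a2 and Slc6a20b held in all 22 alternative analyses of dbdb vs. control. Their log2 fold changes there were -0.60 to -0.39, -0.42 to -0.23, 0.56 to 0.82 and -0.46 to -0.24, in this order. That of Slc6a18 was lost without control replicate 3 (adjusted p = 0.0512) and under 2 other scalings of the libraries, and that of Slc7a8 without control replicate 3 (0.0550), dbdb replicate 1 (0.0520) or dbdb replicate 2 (0.0589). Mitochondrially encoded genes held between 26.9% and 32.8% of the summed FPKM of a library, 28.2% to 30.0% in control and 28.2% to 30.1% in dbdb. The summed FPKM of all genes was 675346 to 730057 in control and 594838 to 647995 in dbdb. Leaving the mitochondrial genes out and scaling every library to the same sum shifted the median of all genes to 0.15 in dbdb vs. control. The parts of the 2 steps in this shift were not tested. The share of called genes that were higher then went from 49.5% to 78.3%, Slc7a9 and Slc7a7 were called as higher (log2 fold changes of 0.32 and 0.37, adjusted p = 0.00395 and 0.0267, limma) and Slc6a18 was no longer called (-0.30, adjusted p = 0.0914). Quantile normalization made the same 3 changes, with Slc7a9 at 0.27 (0.00787), Slc7a7 at 0.33 (0.0404) and Slc6a18 at -0.34 (0.0618). The 6 genes kept their direction under each of the 4 scalings.

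**Figure D2:**
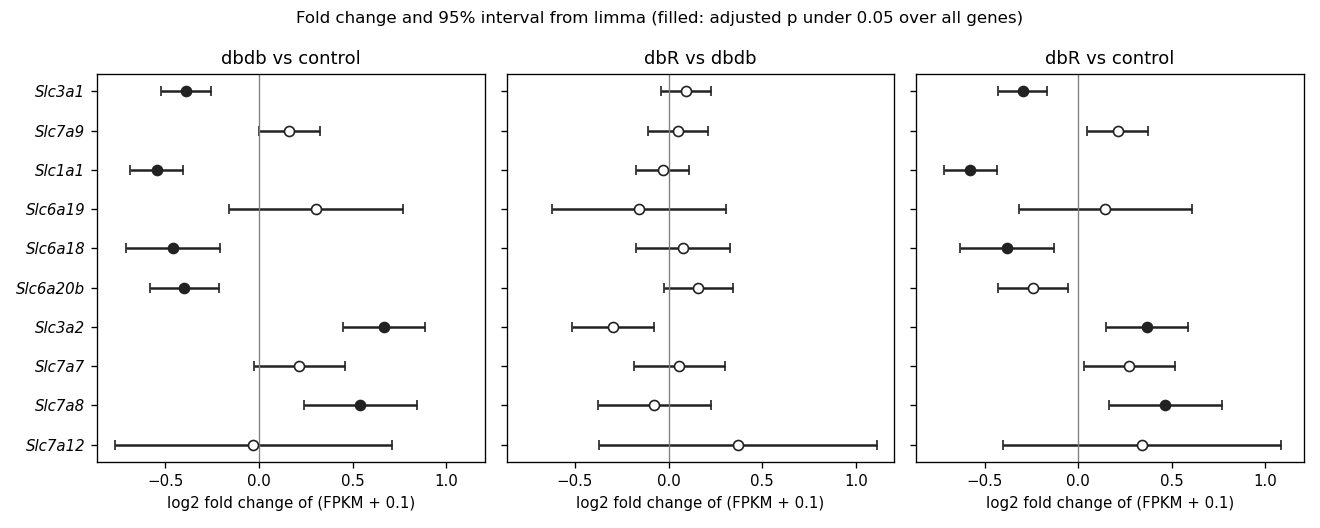
Log2 fold change of FPKM + 0.1 (horizontal axis) with its 95% interval for each gene in the 3 comparisons, filled where the adjusted p was under 0.05. In dbdb vs. control the changes ran from -0.55 (Slc1a1) to 0.67 (Slc3a2), and in dbR vs. dbdb no point is filled.

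The second comparison, dbR vs. dbdb, asks which of these genes differed after rosiglitazone. None of the 10 was called (limma), beside 0.743% of all genes (108 of 14537), 0.564% higher and 0.179% lower. At an unadjusted p under 0.05 there was 1 of 10 and 2541 of all genes. The groups did not overlap in 3 of 10 genes, 2 higher and 1 lower, beside 22.7% of all genes (10.7% higher and 11.9% lower).

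Slc3a2 was the gene that passed without adjustment. It was at 126, 120 and 113 FPKM in dbR, below all dbdb libraries (159, 149 and 133) and above all control libraries (at most 100.3). The log2 difference from dbdb was -0.30 (95% interval -0.52 to -0.08, adjusted p = 0.165, limma). Its unadjusted limma p was 0.0128, and the adjusted p was between 0.0979 and 0.364 over the 22 alternatives. Against control, Slc3a2 was still higher in dbR by 0.37 ± 0.098 (adjusted p = 0.0229).

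Slc3a1 and Slc6a20b had dbR libraries that all lay above the dbdb libraries and below the control libraries. Slc3a1 was at 228, 232 and 243 FPKM in dbR, the lowest of them just above the highest dbdb library at 228, and the log2 difference was 0.09 (95% interval -0.04 to 0.22, adjusted p = 0.456, limma). Over the 22 alternatives this difference ran from 0.0018 to 0.12. Slc6a20b was at 71.3, 71.2 and 72.4 FPKM, a difference of 0.16 (-0.03 to 0.34, adjusted p = 0.360) that was 0.052 without dbdb replicate 3.

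Slc1a1 was at 49.7, 48.0 and 49.4 FPKM in dbR, all within the dbdb range. The log2 difference was -0.03, and its 95% interval (-0.17 to 0.11) did not reach the 0.55 by which dbdb was below control. Slc7a8, at 80.1, 65.9 and 67.5 FPKM, and Slc6a18, at 77.2, 59.7 and 78.6, overlapped with dbdb, with intervals of -0.38 to 0.23 and -0.17 to 0.33. Slc7a7 was at 143, 159 and 150 FPKM and Slc7a9 at 109, 121 and 119, with intervals of -0.19 to 0.30 and -0.11 to 0.21. Slc6a19 was at 207, 182 and 194 FPKM, a narrower span than in dbdb, and Slc7a12 at 36.9, 16.0 and 26.1. For both the interval was wide, from -0.62 to 0.31 and from -0.37 to 1.11.

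Against control, dbR had 5 of 10 genes called, beside 24.1% of all genes (12.3% higher and 11.8% lower), and 8 of 10 with groups that did not overlap, beside 41.9% (20.8% higher and 21.1% lower). Slc1a1 (log2 fold change -0.58, adjusted p = 0.000242, limma), Slc3a1 (-0.30, adjusted p = 0.00572) and Slc6a18 (-0.38, adjusted p = 0.0350) were lower, and Slc3a2 (0.37) and Slc7a8 (0.47, adjusted p = 0.0318) were higher. Slc6a20b (-0.24), Slc7a9 (0.21) and Slc7a7 (0.27) had adjusted p values of 0.0603, 0.0603 and 0.0978. Slc7a9 was called in 6 of 22 alternatives (the lowest adjusted p was 0.00576, limma), among them that without dbdb replicate 1 (0.0262). Slc6a20b was called in 2, without dbdb replicate 3 (0.00871) and with the 6 libraries alone (0.0154), and Slc7a7 in 2, quantile normalization (0.0382) and scaling without mitochondrial genes (0.0345). The difference in Slc7a7 was 0.16 without control replicate 3, and that in Slc6a18 was -0.25 without dbR replicate 2. These are the control libraries of the first comparison, so the likeness of both sets of calls is no independent repeat. Slc6a18 lost its call in 10 of 22 alternatives, Slc7a8 in 7 and Slc3a2 in 3. Among these losses were those without control replicate 3 (adjusted p = 0.105 for Slc6a18, 0.106 for Slc7a8 and 0.0644 for Slc3a2) and those without dbR replicate 2 (0.0956, 0.0508 and 0.0636). Slc3a2 (0.0762) and Slc7a8 (0.111) were also lost without dbR replicate 1, Slc7a8 without dbR replicate 3 (0.0569), both Slc6a18 (0.0703) and Slc7a8 (0.0513) without control replicate 1, and Slc6a18 without control replicate 2 (0.0607).

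Ratios within a library do not depend on its scaling, and 4 were formed between partners or near relatives. With 3 libraries against 3 an exact two-sided permutation test cannot go below p = 0.10, so each is given with that limit. The ratio of the heavy chain Slc3a1 to its light chain Slc7a9 was 2.86, 2.72 and 3.00 in control, 1.73, 2.15 and 2.00 in dbdb and 2.09, 1.91 and 2.03 in dbR. Both homozygous groups lay below control (log2 difference of dbdb from control -0.55, exact p = 0.10) and overlapped with each other (0.04, exact p = 0.80).

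The ratio of Slc3a2 to the sum of its light chains Slc7a7 and Slc7a8 was 0.505, 0.542 and 0.530 in control, 0.648, 0.663 and 0.694 in dbdb and 0.564, 0.534 and 0.517 in dbR. The dbdb libraries stood above both other groups, which overlapped. The log2 difference was 0.35 for dbdb vs. control and -0.31 for dbR vs. dbdb (exact p = 0.10 for each, the smallest possible), and 0.03 for dbR vs. control (exact p = 0.50). Over 4 ratios and 3 comparisons, 12 tests were made, none of which could pass an adjustment.

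Slc6a18 and Slc6a19 are neighbours on chromosome 13, with 1721 bases between them, and their control ratio of 0.530 ± 0.0212 compares with 0.335 ± 0.146 in dbdb and 0.369 ± 0.0391 in dbR (SD, n = 3). All dbdb libraries were below all control libraries (log2 difference -0.76, exact p = 0.10), the lowest of them (0.184) being the library with the high Slc6a19 value. Without dbdb replicate 1 the log2 difference was -0.38. For Slc7a7 to Slc7a8 the control ratio of 2.43 ± 0.145 compares with 1.94 ± 0.187 in dbdb and 2.14 ± 0.321 in dbR, lower in dbdb without overlap (-0.33, exact p = 0.10).

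**Figure D3:**
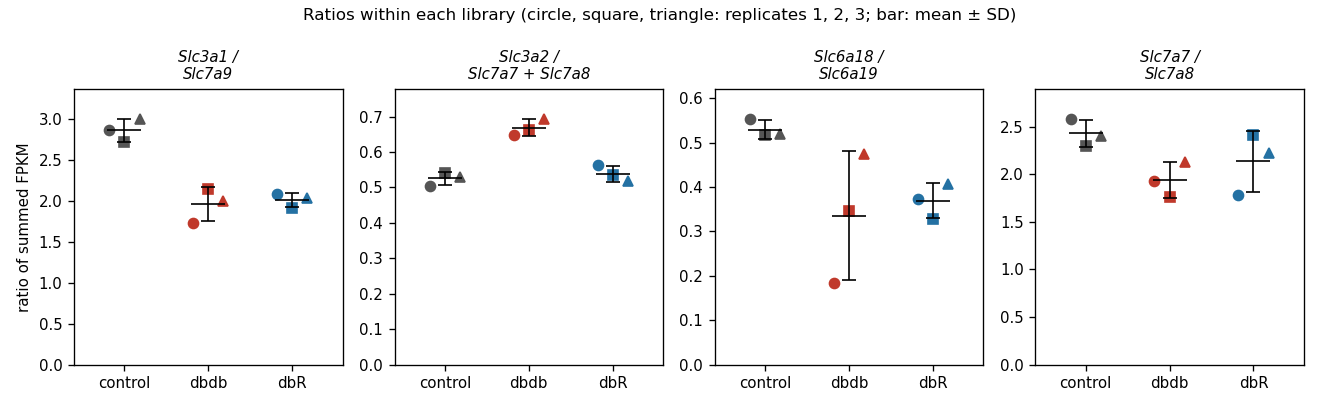
Ratio of summed FPKM within each library (vertical axes from 0) for Slc3a1 to Slc7a9, Slc3a2 to the sum of Slc7a7 and Slc7a8, Slc6a18 to Slc6a19, and Slc7a7 to Slc7a8, with symbols for replicates and bars for the mean ± SD. In the second panel dbR (0.517 to 0.564) overlaps with control (0.505 to 0.542), and dbdb (0.648 to 0.694) stands above both.

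The transcripts behind these sums are given as a description, since Cufflinks divides the reads of a gene between its isoforms. Slc1a1, Slc3a1, Slc6a19, Slc6a20b and Slc7a8 had a single transcript in the files, and the 10 genes had 28. Of Slc3a2, the most abundant transcript held between 82.2% and 85.8% of the gene in every library and the next between 10.8% and 13.04%, and both were higher in every dbdb library than in any control library. All 3 transcripts of Slc6a18 were lower in dbdb. The least abundant went from 12.3 to 13.8 FPKM in control to 5.53 to 7.25 in dbdb and 5.79 to 6.42 in dbR, so that its share of the gene went from 13.9% to 14.0% in control to at most 9.77% in both other groups. A minor transcript of Slc7a7 was also lower, at 5.501 to 6.97 FPKM in control, 2.91 to 4.18 in dbdb and 2.70 to 3.74 in dbR, while its main transcript was at 93.2 to 119 FPKM in control and 115 to 147 in dbdb. The main transcript of Slc7a9 held between 66.1% and 73.8% of the gene and was above control in every dbdb library, at 76.4 to 86.2 FPKM against 67.5 to 71.0.

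On the GRCm38 assembly (GENCODE annotation) the genes lie on 7 chromosomes. They are Slc3a1 at chr17:85028376-85064236, Slc7a9 at chr7:35448796-35466036, Slc1a1 at chr19:28835049-28913960, Slc6a18 at chr13:73661752-73678023, Slc6a19 at chr13:73679745-73704865, Slc6a20b at chr9:123590800-123632565, Slc3a2 at chr19:8706882-8723369, Slc7a7 at chr14:54369442-54417780, Slc7a8 at chr14:54722209-54781946 and Slc7a12 at chr3:14480697-14505830. The neighbours on chromosome 13 are those of the ratio above, and Slc7a7 and Slc7a8 are 304 kb apart. Slc6a20b and its paralog Slc6a20a are 2204 bases apart and similar in sequence, so reads may be divided between them with error. Slc1a1, Slc3a1, Slc6a19, Slc6a20b and Slc7a7 each overlap a gene on the opposite strand, and whether strand was used in quantification is not given in the sources used here.

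A wider list of 40 amino acid and peptide transporter genes was read in the same way. Of these, 39 were in the files and 31 passed the minimum. In dbdb vs. control 11 rose and 5 fell, beside 13.1% and 13.4% of all genes tested, with a median log2 fold change of 0.05 over the 31 and -0.003 over all genes. The largest change was that of Slc7a13, an apical carrier of aspartate, glutamate and cystine in the late proximal tubule and a second light chain of Slc3a1. It was at 448, 398 and 566 FPKM in control, 55.4, 60.4 and 61.7 in dbdb and 101, 115 and 156 in dbR. The 3 groups did not overlap (dbdb vs. control -2.98 ± 0.16, adjusted p = 7.55e-06, limma), and Slc7a13 was the only gene of the list called in dbR vs. dbdb (1.04 ± 0.16, adjusted p = 0.0282). That second call was lost in 7 of 22 alternatives, among them those without dbdb replicate 1 (0.0669), dbdb replicate 2 (0.0794), dbR replicate 2 (0.120) or dbR replicate 3 (0.0604).

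The summed level of these light chains of Slc3a1 differed between the groups too. In control the FPKM of Slc7a9 and Slc7a13 together came to between 500 and 667, of which Slc7a13 was between 79.6% and 84.9%. In dbdb the sum was between 167 and 181 with 30.7% to 36.6% from Slc7a13, and in dbR between 210 and 275 with 47.9% to 56.6%. Slc3a1 per light chain was thus between 0.453 and 0.556 in control, 1.20 and 1.37 in dbdb and 0.882 and 1.09 in dbR. This sum was chosen after its values were seen and is given without a test.

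Next to Slc7a13, the genes that fell were Slc1a4 (log2 fold change -1.60), a neutral amino acid exchanger, Slc6a15 (-1.25), a brain-type neutral carrier, the glycine carrier Slc6a9 (-1.08) and the apical peptide carrier Slc15a2 (-0.73). Those that rose were led by Slc7a5 (1.02), a further light chain of Slc3a2, the peptide carrier Slc15a1 (0.94), the basolateral neutral uniporter Slc43a2 (0.85), the basolateral glutamine carrier Slc38a3 (0.70) and the glutamine exchanger Slc1a5 (0.68). Several of these were of low level. Slc7a5 and Slc15a1 were below 1 FPKM in every library and Slc1a4, Slc1a5 and Slc6a9 below 10, and with a pseudocount of 1 the log2 fold changes of Slc7a5 and Slc15a1 were 0.40 and 0.36. Slc43a2 rose from 31.3 to 36.4 FPKM in control to 56.9 to 66.8 in dbdb. Slc15a1 lost its call in 12 of 21 alternatives, among them those without control replicate 2 (adjusted p = 0.0669), control replicate 3 (0.132), dbdb replicate 1 (0.130), dbdb replicate 2 (0.0600), dbdb replicate 3 (0.0657) or dbR replicate 3 (0.0608). With the highest transcript of each gene, Slc1a4 was at -3.01 and was no longer called (adjusted p = 0.0600, limma). Slc6a20a, the other counterpart of SLC6A20, was at 8.67 to 11.1 FPKM in control and 8.42 to 11.6 in dbdb, with no change called (-0.02, adjusted p = 0.919).

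In dbR vs. control 9 of the 31 tested genes of the wider list were higher and 6 lower, beside 12.3% and 11.8% of all genes. Among the called genes the largest changes were in Slc7a13 (-1.94), Slc1a4 (-1.46), Slc6a9 (-1.41), Slc6a15 (-1.07), Slc15a1 (0.94), Slc7a5 (0.92), the arginine carrier Slc7a1 (0.64), the taurine carrier Slc6a6 (0.60), Slc1a5 (0.59) and Slc43a2 (0.51). Over the alternatives, the smallest log2 fold changes of Slc15a1 and Slc7a5 were 0.36 and 0.35. Slc15a1 lost its call in 12 of 21 alternatives, among them those without control replicate 2 (adjusted p = 0.0715, limma), control replicate 3 (0.141), dbdb replicate 2 (0.0568), dbdb replicate 3 (0.0537), dbR replicate 2 (0.146) or dbR replicate 3 (0.102). With the highest transcript of each gene in place of the sum, the calls of Slc1a4 (-2.29, 0.143) and Slc7a1 (0.30, 0.159) were lost.

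**Figure D4:**
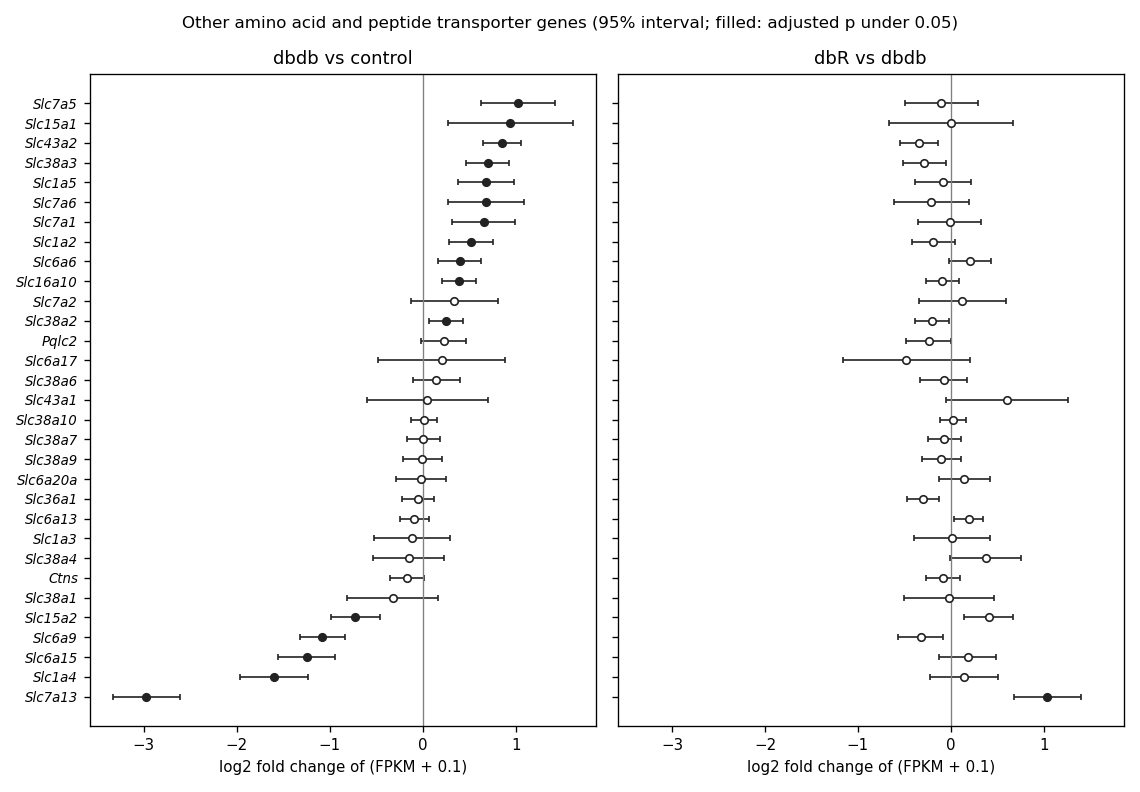
Log2 fold change of FPKM + 0.1 with its 95% interval for the 31 tested genes of the wider list (rows, ordered by dbdb vs. control), filled where the adjusted p was under 0.05. Slc7a13 lies at the lower end of dbdb vs. control at -2.98 and is the only filled point in dbR vs. dbdb, at 1.04.

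In the kidney, Slc6a18 and Slc6a19 need the accessory protein collectrin (Tmem27) to reach the apical membrane. Tmem27 was far more abundant than any of the 10 carriers, at 1562 to 1617 FPKM in control, 1070 to 1351 in dbdb and 1343 to 1641 in dbR. All dbdb libraries were below control (-0.37, adjusted p = 0.0374, limma), and dbR overlapped with both (0.25 vs. dbdb, adjusted p = 0.296, and 0.14 without dbdb replicate 3). The call in dbdb vs. control was lost in 9 of 22 alternatives, of which 6 left out 1 library: control replicate 1 (0.0796), control replicate 2 (0.0917), control replicate 3 (0.0898), dbdb replicate 2 (0.0641), dbdb replicate 3 (0.110) and dbR replicate 3 (0.0571). Among the other losses was that with scaling without mitochondrial genes (log2 fold change -0.21, adjusted p = 0.0792, limma).

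Markers of cell types and states were read beside these genes. Their counts stand beside 13.1% of all genes higher and 13.4% lower in dbdb vs. control. Of 12 general proximal tubule markers, 2 rose and 2 fell in dbdb vs. control (Slc5a12 0.55 and Slc5a2 0.42, Ggt1 -0.91 and Slc22a6 -0.58), their summed FPKM was 4484 to 4790 in control, 4193 to 5214 in dbdb and 4790 to 4877 in dbR, and none was at 0. All 3 late proximal tubule markers fell (Slc7a13, Cyp7b1 -4.19 and Slc22a7 -5.85), with sums of 464 to 687 in control, 59.2 to 66.2 in dbdb and 105 to 159 in dbR. Slc7a13 made up most of these sums, at 101 to 156 FPKM in dbR. Cyp7b1 (-0.11, adjusted p = 0.843, limma) and Slc22a7 (0.29, adjusted p = 0.684) were not called in dbR vs. dbdb. All 9 genes known to be higher in male than in female mouse kidney fell, with sums of 37814 to 49525 in control, 5646 to 6730 in dbdb and 7116 to 8991 in dbR, and Slc7a13 and Cyp7b1 are in both lists. Kap made up most of each sum of the 9, at 34964 to 45755 FPKM in control, 4796 to 5728 in dbdb and 6173 to 7646 in dbR. Of the 9, only Slc7a13 was called in dbR vs. dbdb. Kap was at 0.34 (adjusted p = 0.391, limma) and Slco1a1 at -1.35 (adjusted p = 0.246). Of 4 genes known to be higher in females 3 rose and 1 fell. Of 5 collecting duct markers 4 rose (summed FPKM 92.1 to 112 in control, 137 to 226 in dbdb and 148 to 168 in dbR), and of 5 thick limb and distal markers 3 (535 to 635, 750 to 1051 and 805 to 891). Of 6 podocyte markers 3 rose (76.9 to 87.6, 90.6 to 96.8 and 83.3 to 101). Of 6 leukocyte markers 5 fell (43.3 to 53.2, 20.2 to 30.1 and 27.3 to 34.7), of 5 endothelial markers 4 (97.3 to 106, 69.2 to 75.7 and 97.2 to 116) and of 4 stromal markers 1 (20.2 to 32.2, 13.8 to 21.1 and 23.6 to 31.3). In dbR vs. dbdb, with 0.743% of all genes called, the markers called beside Slc7a13 were the endothelial Kdr (0.52) and Emcn (0.66), the stromal Pdgfrb (0.69) and the collecting duct gene Atp6v1g3 (0.52), all higher in dbR. All 4 calls were lost without dbR replicate 2 (adjusted p from 0.0688 to 0.151, limma) or dbR replicate 3 (0.0604 to 0.0797). Those of Kdr (0.0681), Pdgfrb (0.0528) and Atp6v1g3 (0.0561) were lost without dbdb replicate 1, those of Emcn (0.0516), Pdgfrb (0.0662) and Atp6v1g3 (0.0715) without dbdb replicate 2, and that of Kdr (0.0601) without dbR replicate 1. Of 5 tubular injury markers Lcn2 rose and Havcr1 fell, and their summed FPKM was 4.02 to 4.60 in control, 4.01 to 5.68 in dbdb and 5.80 to 8.37 in dbR, where it lay above both other groups without overlap and none of the 5 was called against dbdb. The calls of Slc5a2 and Havcr1 were lost without control replicate 3 (adjusted p = 0.0681 and 0.127, limma), dbdb replicate 1 (0.0677 and 0.0670) or dbdb replicate 2 (0.0847 and 0.115), that of Slc5a2 also without control replicate 2 (0.0744) and that of Havcr1 without control replicate 1 (0.0592), and Havcr1 lost its call in 7 of 21 alternatives in all. The 4 adipocyte markers summed to 0.228 to 2.15 FPKM in control, at most 0.0518 in dbdb and 0.0315 to 0.618 in dbR, and of 2 tested Cfd was called lower in both homozygous groups vs. control (adjusted p = 0.0138 in dbdb and 0.0108 in dbR, limma), listed at 0 in 2 of 3 dbdb and all 3 dbR libraries. The part of these shifts in the changes of the 10 carriers was not tested.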

How the data were processed

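Ribosome-depleted, strand-specific libraries of renal cortex RNA were sequenced by the authors, aligned to GRCm38.p2 with TopHat2 (2.0.9), assembled with Scripture and Cufflinks, and quantified with Cufflinks (2.1.1). The authors deposited FPKM per transcript, which is normalized to transcript length and mapped fragments. Such values keep no read counts, so no count model was used. Relative depth, read from the steps between low FPKM values, was 0.916 to 1.14 of control replicate 1. Pearson correlations of log2 values within groups were 0.985 to 0.992. Only the mRNA files were used, with 50660 transcripts of 21950 genes; files on lncRNAs were not used here.

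FPKM was summed per gene, and log2(FPKM + 0.1) of the 14537 genes with a mean of at least 0.1 was fitted with limma (3.58.1, R 4.3.3) in 1 model of 3 groups, letting the variance depend on mean expression. Tests were two-sided with Benjamini-Hochberg adjustment over all genes, and a gene was called at an adjusted p under 0.05. Fold changes on this scale understate those of low genes. The fit was tested on simulated data. Ratios were compared by exact permutation in scipy (1.17.1). All 10 members were named, with Slc6a20a, Slc7a13 and Tmem27, and at most the 10 largest called changes of the wider list per comparison and 4 of each marker list. One gene named by this rule is not reported here. The members, gene lists and motifs were chosen with earlier results of these data known. Alternatives covered the pseudocount, filter, scaling, libraries in the fit, variance model, replicate block, highest transcript and leaving out each library.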

Additional observations from a re-analysis of the deposited data

How the results depend on the processing

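Of the 10 genes, the number called in dbdb vs. control was 4 to 7 over 22 alternatives (6 in the report) and 0 in dbR vs. dbdb in each. In dbR vs. control it was 2 to 7 (5 in the report), namely 3 with no filter, 3 with no variance trend, and 2 to 6 when 1 library was left out, with 2 without control replicate 3 or dbR replicate 2 and 3 without control replicate 1 or dbR replicate 1. Over all genes, the 108 calls of dbR vs. dbdb became 31 with no filter, 166 with a minimum mean of 1 FPKM, 198 with scaling to the 75th percentile, 234 with quantile normalization, 22 with the 6 libraries alone, 18 with no variance trend, 166 with robust variance, 49 with the highest transcript of each gene, and 2 to 141 when 1 library was left out (2 without dbR replicate 2, 10 without dbR replicate 3, 31 without dbdb replicate 2, 36 without dbdb replicate 1 and 70 without dbR replicate 1). The causes were not tested. The share of called genes that were higher in dbR vs. dbdb was 75.9% and became 48.6% with scaling to the same sum without mitochondrial genes. In dbR vs. control it went from 51.1% to 70.5%.

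The replicate numbers of the labels did not pair the libraries: of 9 pairs with the same number, none had deviations from the group means that correlated above 0.1 (-0.17 to 0.06), and 2 of 9 libraries correlated best with one of their own number. With the replicate block 3345 genes were called in dbdb vs. control (3840 without), 23 in dbR vs. dbdb and 3030 in dbR vs. control (3497 without), and of the 10 genes 6, 0 and 5. The block also ended the calls of Tmem27 (adjusted p = 0.0664) and Slc15a1 (0.0584) in dbdb vs. control, of Slc15a1 (0.0625) in dbR vs. control and of Pdgfrb and Atp6v1g3 (0.0594 each) in dbR vs. dbdb.

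Small differences changed sign. Scaling without mitochondrial genes gave 0.13 for Slc7a12 and 0.14 for Slc6a20a in dbdb vs. control, and -0.0063 for Slc7a7 and -0.013 for Slc7a9 in dbR vs. dbdb. Leaving out 1 library gave, in dbdb vs. control, -0.34 to 0.17 for Slc7a12 and -0.14 to 0.093 for Slc6a20a. In dbR vs. dbdb it gave -0.094 to 0.023 for Slc1a1, -0.0089 to 0.21 for Slc6a18, -0.39 to 0.13 for Slc6a19, -0.018 to 0.14 for Slc7a7 and -0.22 to 0.0061 for Slc7a8, and for the log2 ratios -0.044 to 0.11 for Slc3a1 to Slc7a9 and -0.14 to 0.54 for Slc6a18 to Slc6a19. None of these differences was called. FPKM values hold no read counts, so the counting error of a value is unknown.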
